A study of Drosophila melanogaster with 4 samples.

Results

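The 9 genes described here encode transcription factors of the ecdysone response in Drosophila melanogaster: the receptor subunits EcR and usp, the early genes Eip74EF, Eip75B and br, and the nuclear receptor genes Eip78C, Hr46, Hr39 and ftz-f1. They were chosen by name, not by a cut on their values, but with earlier results of these data known. They are 9 of the 15340 genes in the table of normalized read counts, where Hr46 stands for the gene now called Hr3. The libraries came from Xbp1ex79-/- larvae, labelled mutant, and from Xbp1+/+ larvae of a precise excision line, labelled WT; both lines come from excisions of the same insertion in Xbp1. All larvae are described as whole second-instar larvae 48 h old. Each genotype gave 2 independent RNA extractions and so 2 libraries, called mutant 1, mutant 2, WT 1 and WT 2 below. The mutation is carried by every cell of the larva. The number and sex of the larvae pooled in an extraction are not given in the sources used here. The 9 genes were examined because their levels change around each molt and so bear on where each library stands between molts.

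Ecdysone is the steroid hormone that times the molts and metamorphosis of the fly. Its active form binds a heterodimer of EcR and Usp, which switches on a small set of early genes, among them Eip74EF, Eip75B and br. Their products, with the nuclear receptor encoded by Hr46 and others, act on later genes in turn, including ftz-f1, which is known for its expression after an ecdysone pulse has passed, and genes for the cuticle. Larvae go through such a pulse before each molt, so the balance of early and later factors is known to differ between the beginning, the middle and the end of an instar.

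The reads on genes numbered between 31416284 and 38601267 per library, of which 37.2% to 43.7% fell on CR41602, a pseudogene of ribosomal RNA. Normalized counts are reads on a gene scaled by a size factor for each library, and 3 reads corresponded to 2.69 to 3.62 of it. Intervals quoted for 1 library are exact Poisson 95% intervals of its reads and cover counting error only, since PCR copies cannot be told from separate molecules. The count of the targeted gene gave no check of the labels: Xbp1 had 6020 ± 94.6 normalized counts in the mutant-labelled libraries and 6450 ± 1313 in the WT-labelled libraries (mean ± SD, n = 2 each). Directions are therefore given between libraries as labelled. The study describes the allele as a deletion around the start codon, so reads from the rest of the gene could still be counted. For the samples of its qRT-PCR, the study measured Xbp1 to check the genotype. The description of the samples went against several markers. Fbp1, Lsp1beta, Lsp2, Lsp1gamma, Lsp1alpha and Fbp2, fat body genes known for high expression in third-instar larvae, stood at ranks 2, 3, 4, 5, 7 and 10 of the table by mean count. Together with the glue genes, of which every Sgs gene listed had few reads, these third-instar genes held 37.4% to 45.0% of the normalized counts outside CR41602. Markers of the midgut held 0.00169% to 0.0167%, and muscle genes held 0.00216% to 0.00335%. The midgut sum was highest in WT 1 through Jon65Aiv, at 2616 there and between 3.58 and 22.9 in the other libraries, a gene that DESeq2 called lower, and the 3 trypsin genes of that list did not exceed 11.7 in any library. Myo31DF, another midgut marker, had the opposite order, with 624 and 618 normalized counts in mutant 1 and mutant 2 and 329 and 363 in WT 1 and WT 2, a log2 fold change of 0.84. Of 7 muscle genes 5 were higher in both mutant-labelled libraries, beside 26.2% of all tested genes. The 7 had a median log2 fold change of 1.04 and summed counts of 603 to 806 against 487 to 493. Of them 0 were called by limma or edgeR and 1, Mlc2, was called higher by DESeq2, as were 2.02% of all genes with an adjusted p. The part of these markers in the values of the 9 genes was not tested. Hemocyte genes held 0.238% to 0.282% and larval cuticle genes 0.000213% to 0.000373%. The makeup of the libraries by tissue and stage was not determined, and in such mixed tissue fewer cells of a type and less RNA per cell cannot be told apart.

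**Figure D1:**
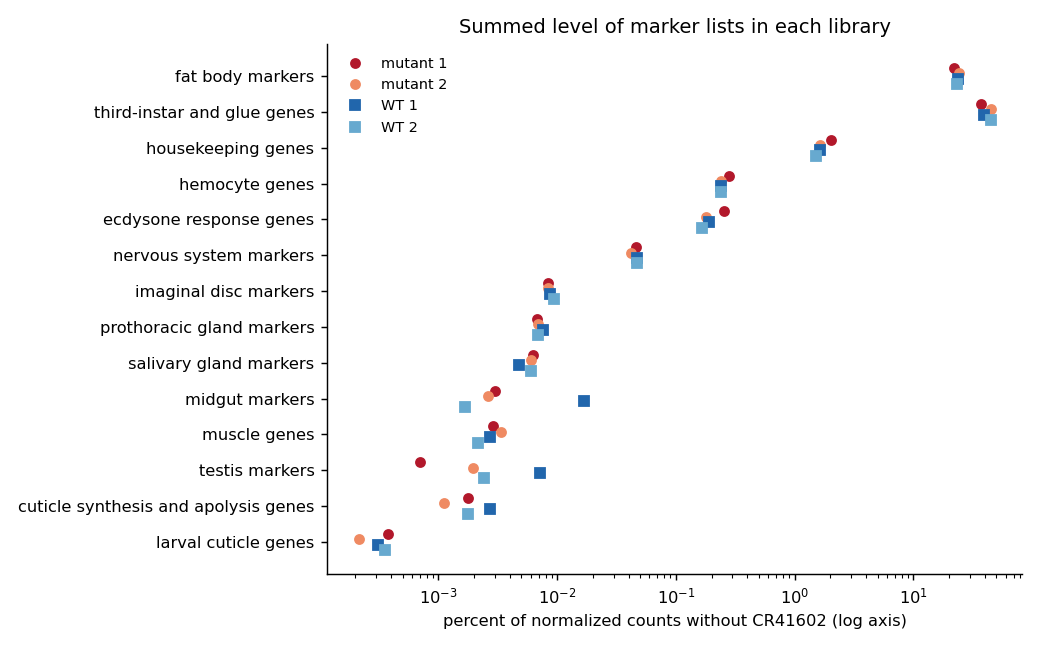
Percent of the normalized counts outside CR41602 (log axis) that fell on each list of marker genes, with a point for each library (circles, labelled mutant; squares, labelled WT). Fat body genes held 21.9% to 24.1% in the 4 libraries, while the lists for midgut, muscle, testis and cuticle held far less, with WT 1 the highest library for testis genes and, through Jon65Aiv, for midgut genes.

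All 9 genes were expressed in every library. Their mean normalized counts ranged from 133 for ftz-f1 in the WT-labelled libraries to 16602 for Eip75B in the mutant-labelled libraries. Groups were compared with limma on log2(normalized count + 1), for the 10500 genes whose mean reached 10, and p-values were adjusted after Benjamini and Hochberg; log2 fold changes are labelled mutant minus labelled WT. By this test 0 of the 9 genes passed an adjusted p of 0.05, where 0.00952% of all tested genes did, and 1 of the 9, Eip75B, had an unadjusted p under 0.05, against 14.1% of all tested genes. With DESeq2 on the recovered reads Eip75B alone among the 9 passed, higher in the mutant-labelled libraries, where 2.02% of all genes with an adjusted p were called higher and 1.66% lower; edgeR called 0 of them. For 3 genes, Eip75B, usp and ftz-f1, both mutant-labelled libraries lay above both labelled WT on the deposited scale (for Eip75B alone when scaled to housekeeping genes), as did 26.2% of all tested genes, and for 0 of the 9 the reverse held, as it did for 27.9% of all tested genes. The same 3 genes were those whose difference between groups exceeded the log2 gap between the libraries within each group, a condition that 19% of tested genes met in the higher direction and 19% in the lower. For 1 gene on its own, the smallest two-sided p of an exact permutation test over these 4 libraries is 0.333.

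**Figure D2:**
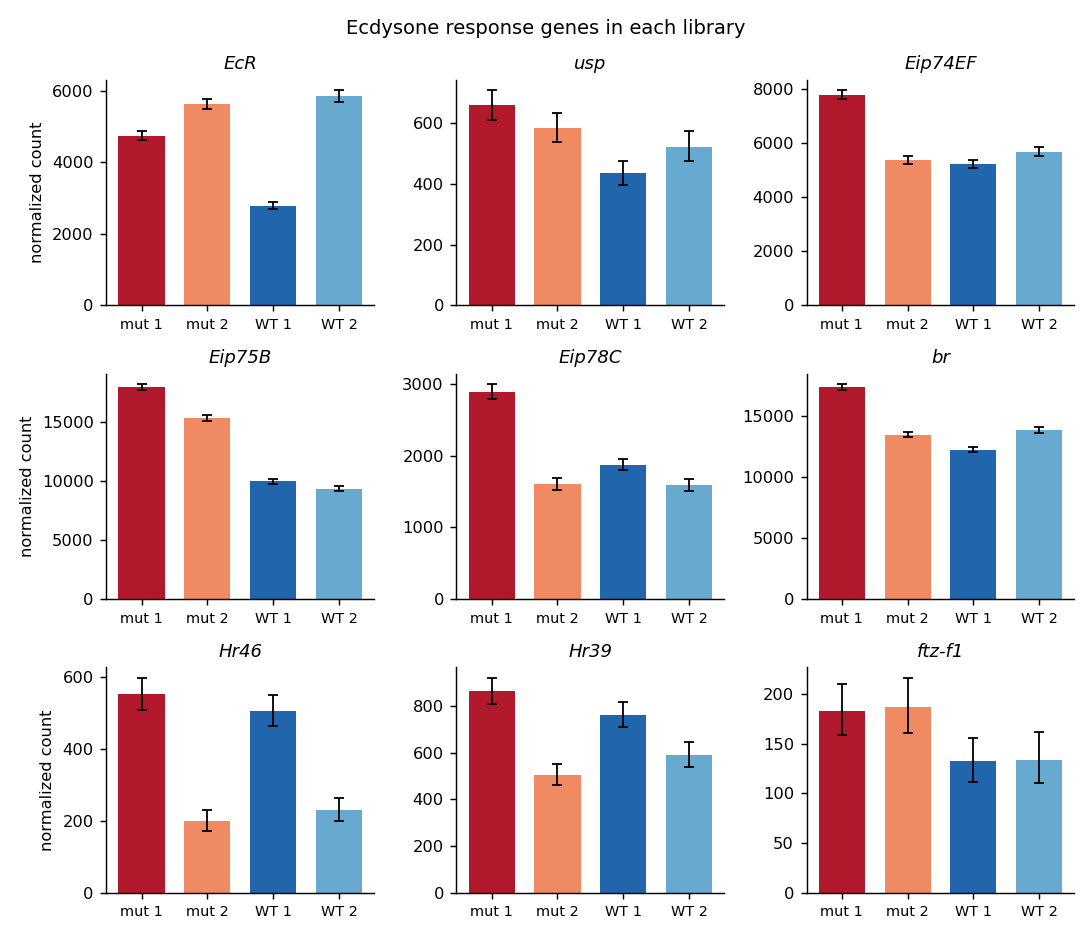
Normalized count (linear axes from 0) of each of the 9 genes in the 4 libraries; error bars are exact Poisson 95% intervals of the reads. Eip75B, usp and ftz-f1 separate the groups on this scale (Eip75B alone keeps that order when scaled to housekeeping genes), whereas Hr46 lies at 553 and 507 in mutant 1 and WT 1 and at 199.9 and 230 in mutant 2 and WT 2.

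EcR encodes the ecdysone-binding subunit of the receptor. The gene lies on the minus strand of chromosome arm 2R, from 6087873 to 6169087 in the dm6 assembly, with 9934 bases of exon in 6 annotated transcripts, which gene-level counts do not separate. Its normalized counts were 4747 and 5635 in mutant 1 and mutant 2 and 2791 and 5844 in WT 1 and WT 2. WT 1 was the low library, and the groups overlapped because WT 2 was the highest of all. The log2 fold change was 0.36 (standard error 0.38, 95% interval -0.61 to 1.32), and its adjusted p was 0.626 (limma, Benjamini-Hochberg). This value rested on WT 1: without it the log2 fold change was -0.18, and without WT 2 it was 0.89.

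The partner of EcR in the receptor is the product of usp, the fly retinoid X receptor. The gene occupies 3514 bp of the X chromosome, from 2038798 to 2042311 on the minus strand, and has 2 annotated transcripts. Of its 3038 exonic bases, 265 are shared with Actn on the same strand, so that reads there could belong to either gene. Normalized counts of usp were 659.5 and 584 in the mutant-labelled libraries and 436 and 523 in the WT-labelled libraries. The groups did not overlap, in an order that scaling to housekeeping genes turned round, but the counting intervals of mutant 2 and WT 2 did, and usp was among the 2 genes whose libraries within a group lay no further apart than counting error. A log2 fold change of 0.38 had a standard error of 0.21 and a 95% interval from -0.16 to 0.91, and limma gave 0.393 as the Benjamini-Hochberg adjusted p.

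On the deposited scale Eip75B showed the largest difference between the groups of the 9 genes, whereas ftz-f1 exceeded it after quantile normalization and Hr46 and Hr39, in the lower direction, when scaled to housekeeping genes. It encodes a heme-binding nuclear receptor of the Rev-erb family, which is induced directly by the hormone and is known to oppose the receptor encoded by Hr46. The gene is the longest of the set, covering 113744 bp of arm 3L from 17950953 to 18064696 on the minus strand, with 13451 exonic bases and 7 annotated transcripts. Mutant 1 and mutant 2 had 17907 and 15297 normalized counts, and WT 1 and WT 2 had 9939 and 9327. Both mutant-labelled libraries were high and both labelled WT were low, with no overlap of the groups or of the counting intervals between them. The means were 16602 ± 1845 and 9633 ± 433 (SD, n = 2 each), a 1.72-fold difference with a 95% interval from 1.21 to 2.43. On the log2 scale the difference was 0.78 (standard error 0.20), and limma gave a Benjamini-Hochberg adjusted p of 0.347, from an unadjusted one of 0.0101. DESeq2 on the recovered reads gave an adjusted p of 0.0461 with Benjamini-Hochberg adjustment and a log2 fold change of 0.79, and over the alternatives on all 4 libraries the adjusted p ranged from 0.0461 to 0.528. Leaving out 1 library at a time gave log2 fold changes from 0.67 to 0.90, but other scalings lowered the value, to 0.47 after quantile normalization and to 0.30 when scaled to housekeeping genes.

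Eip74EF and br are the other early genes, encoding an ETS-domain factor and a family of zinc finger factors that share a BTB domain. Eip74EF lies on arm 3L from 17558672 to 17619325 on the minus strand, and br on the X chromosome from 1575132 to 1664869 on the plus strand, where it has 16 annotated transcripts, the most of the 9 genes. Normalized counts of Eip74EF were 7769 and 5352 in the mutant-labelled libraries and 5220 and 5676 in the WT-labelled libraries. Mutant 1 alone stood out, while mutant 2 lay between WT 1 and WT 2. Eip74EF differed by 0.24 on the log2 scale (standard error 0.24), which became -0.02 without mutant 1. For br the normalized counts were 17387 and 13496 in mutant 1 and mutant 2, against 12256 and 13891 in WT 1 and WT 2. Mutant 1 was again the high library and the groups overlapped. The difference for br was 0.23 (standard error 0.22) on the deposited scale but -0.09 after quantile normalization, and with 1 library left out it ranged from 0.049 without mutant 1 to 0.41 without mutant 2. In limma the Benjamini-Hochberg adjusted p was 0.598 for Eip74EF and 0.593 for br.

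Eip78C encodes a further receptor of the Rev-erb type that is induced after the early genes. The gene lies on arm 3L from 21226609 to 21266503 on the plus strand. Its normalized counts were 2893 and 1605 in the mutant-labelled libraries and 1872 and 1586 in the WT-labelled libraries. Mutant 1 was 1.80-fold above mutant 2, a wider gap than the 1.18-fold between WT 1 and WT 2, and the groups overlapped. Between groups the log2 fold change was 0.32 with a 95% interval from -0.49 to 1.14 (limma, Benjamini-Hochberg adjusted p = 0.602), and it was -0.10 without mutant 1.

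Hr46 encodes the fly counterpart of the ROR nuclear receptors and is known for activating ftz-f1 after an ecdysone pulse. It lies on arm 2R from 10203995 to 10237348 on the minus strand. Of its 10465 exonic bases, 6466 are also annotated to CG12912, which had at most 2.41 normalized counts, and 6071 to CG46321, both on the same strand. How reads in shared bases were assigned is not given in the sources used here, so the level of Hr46 may be understated. Normalized counts were 553 in mutant 1, 199.9 in mutant 2, 507 in WT 1 and 230 in WT 2. The first library of each group was high and the second low, by 2.77-fold in the mutant-labelled libraries and 2.20-fold in the WT-labelled ones, and each of these gaps was beyond counting error. The widest range of any of the 9 genes thus lay within the groups. The difference between groups was -0.04 on the log2 scale with a 95% interval from -1.60 to 1.53 (limma, Benjamini-Hochberg adjusted p = 0.977). A change of 2-fold in either direction was thus not excluded for Hr46. Its sign was not fixed, since leaving out mutant 2 gave 0.69 and leaving out mutant 1 gave -0.77.

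Hr39 and ftz-f1 encode the fly members of the NR5A family of nuclear receptors, which are known to share DNA-binding sites. Hr39 is on arm 2L from 21237250 to 21259675 on the plus strand. Its normalized counts were 864 and 505 in mutant 1 and mutant 2, and 762 and 591 in WT 1 and WT 2. The order of the libraries was that of Hr46, with the first library of each group above the second by 1.71-fold and 1.29-fold. Its log2 fold change was -0.02 (95% interval -0.84 to 0.80, limma, Benjamini-Hochberg adjusted p = 0.975).

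In contrast, the values of ftz-f1 were nearly equal within the groups. The gene lies on arm 3L from 18750607 to 18801309 on the minus strand, and 2521 of its 8581 exonic bases are shared with a long noncoding RNA gene, CR45939, on the same strand. Normalized counts were 183 and 187 in the mutant-labelled libraries and 132 and 134 in the WT-labelled libraries, from 111 to 204 reads per library. Both mutant-labelled libraries were above both labelled WT, though not when scaled to housekeeping genes, and the counting interval of mutant 1, from 159 to 209.7, overlapped that of WT 2, from 110.1 to 161. The means of 184.7 ± 2.68 and 133.1 ± 1.08 (SD, n = 2 each) differed 1.38-fold, with a 95% interval from 0.889 to 2.16. The log2 fold change of 0.47 was not called (limma, Benjamini-Hochberg adjusted p = 0.382), and it stayed between 0.45 and 0.48 when any 1 library was left out. Within the groups the log2 gaps of ftz-f1 were only -0.029 and -0.016. Its standard error of 0.25 also reflected the spread of other tested genes, towards which limma draws each variance.

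**Figure D3:**
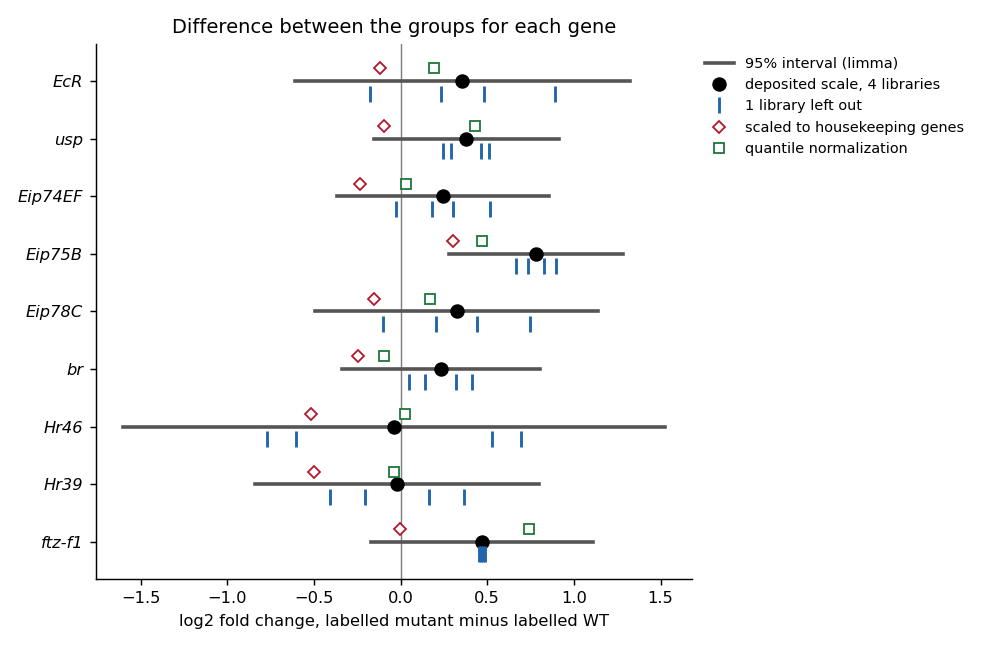
Log2 fold change of each gene, labelled mutant minus labelled WT (x axis), with the limma 95% interval (bar), the value after leaving out each library in turn (ticks), after quantile normalization (squares) and after scaling to housekeeping genes (diamonds). The interval of Eip75B, from 0.28 to 1.28, is the only one of the 9 that does not span 0, and on the housekeeping scale only Eip75B stays above 0, at 0.30.

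The signs of most of these differences depended on 1 choice of scale, that of housekeeping genes. With libraries rescaled to the same total, with or without CR41602, or quantile normalized, 7 of the 9 log2 fold changes were above 0. After quantile normalization br went below 0, at -0.093, and Hr46 above it, at 0.026. On the deposited scale 7 of the 9 log2 fold changes were above 0 and their median was 0.32, beside -0.03 over all tested genes, of which 47.8% were above 0. Genes often used as housekeeping references lay on the same side: 5 of 6 were higher in both mutant-labelled libraries, beside 26.2% of all tested genes. The 6 had a median of 0.53, with 0 called by limma, DESeq2 or edgeR. At an unadjusted limma p under 0.05, 2 were higher, beside 6.89% of all tested genes. Among them RpL32 had normalized counts of 11652 and 9683 against 5546 and 7777. The part of this shift in the values of the 9 genes was not tested. When the libraries were rescaled to the geometric mean of these 6 genes, a choice made after the data were seen, 1 of the 9 log2 fold changes remained above 0, Eip75B at 0.30, and the largest in size were -0.51 for Hr46 and -0.50 for Hr39, while the median over all tested genes went to -0.51. Per 1000 counts of that geometric mean, Eip75B stood at 512 and 463 in the mutant-labelled libraries and 451 and 345 in the WT-labelled libraries, which still did not overlap. On the same scale usp stood at 18.9 and 17.7 against 19.8 and 19.4, the opposite order, and ftz-f1 at 5.23 and 5.65 against 6.01 and 4.95, which overlapped. The values of br were 497 and 409 against 556 and 514, also in the opposite order. Such a rescaling moves every gene of a library by the same factor. Relative to the median of all tested genes the log2 fold change was therefore nearly the same under it, 0.81 for Eip75B, 0.50 for ftz-f1 and 0.41 for usp, and 8 of the 9 genes lay above that median on either scale. After quantile normalization 5 of 9 lay above it, with 0.67 for ftz-f1 and 0.40 for Eip75B.

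The spread between libraries of the same group was wider than counting error for 7 of the 9 genes in each group, all but usp and ftz-f1. Mutant 1 held the highest value for 7 genes and WT 1 the lowest for 5, where mutant 1 was the highest library for 29.8% of tested genes and WT 1 the lowest for 34.6%. Among the tested genes, 11.5% had mutant 2 above mutant 1 and WT 1 above WT 2, each by more than 2-fold; 0 of the 9 genes were among them. The testis markers, whose summed counts were 146 and 472 in the mutant-labelled libraries and 1268 and 550 in the WT-labelled ones, had this order of libraries. Of these markers 6 of 7 were lower in both mutant-labelled libraries, beside 27.9% of all tested genes. The part of the testis markers in the values of the 9 genes was not tested. For 3 of the 9 genes, Hr46, Hr39 and Eip78C, both first libraries lay above both second ones, an order found in 9.91% of tested genes, and EcR alone showed the reverse, found in 11% of them. Hr46 was 1 of only 57 genes, 0.543% of those tested, that exceeded 2-fold in both groups. The sources do not say that libraries of the same number were made together.

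**Figure D4:**
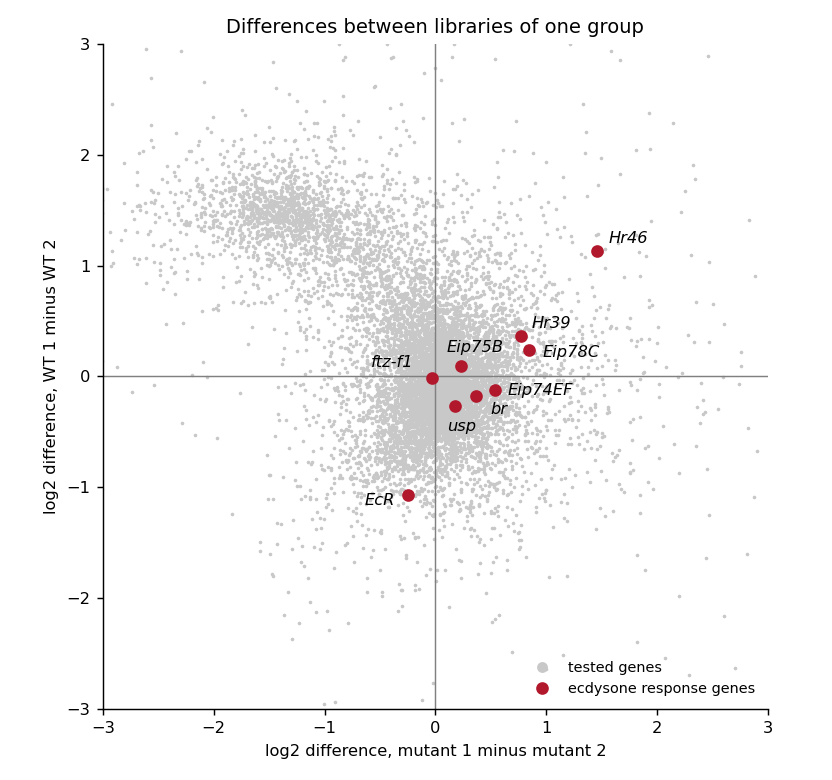
Log2 difference between the mutant-labelled libraries (mutant 1 minus mutant 2, x axis) and between the WT-labelled ones (WT 1 minus WT 2, y axis) for the tested genes (grey; 130 lie outside the axes) and the 9 genes (red). Hr46 lies to the upper right, at 1.46 and 1.13, and none of the 9 falls in the cloud of genes at the upper left.

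Some other genes of the hormone response shared the order of Hr46, although these were picked after their values were seen. Of 17 tested ecdysone-inducible and puff genes, 4 had both first libraries above both second ones and 1 had the reverse. Over all tested genes these shares were 9.91% and 11%. Of the 7 tested genes among the other nuclear receptors, 1, Hr4, had that order. Eip93F, a late-acting factor of metamorphosis, had 134 and 23.6 normalized counts in mutant 1 and mutant 2 and 239 and 31.4 in WT 1 and WT 2. The nuclear receptor gene Hr4 had 463 and 94.3 against 327 and 252. Fbp2 ran from 500612 to 162031 within the mutant-labelled libraries and from 261128 to 193461 within the WT-labelled ones. In each case the first library of a group exceeded the second, though for Hr4 and Fbp2 the gap was much wider in the mutant-labelled libraries. Fbp2 was the exception among the fat body genes of its list, since Lsp1alpha, Lsp1beta, Lsp1gamma, Lsp2 and Fbp1 all had both first libraries below both second ones.

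By the distance between mean-centred log2 values over the 4 libraries, the 5 nearest of 6410 genes with a mean of at least 100 to Hr46 were Ama, l(2)41Ab, fax, Grip and CG2201, at distances of 0.24 to 0.39. Ama, which encodes a secreted protein of the immunoglobulin superfamily, had normalized counts of 9115 and 3577 in the mutant-labelled libraries and 7303 and 3470 in the WT-labelled ones. The likeness rests on 4 libraries and is a description only.

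Levels of different genes can be compared only per length, here as normalized counts per kb of exon. On this scale the order of the means was Eip75B at 975, br at 706, Eip74EF at 643, EcR at 479, Eip78C at 338, usp at 181, Hr39 at 137, Hr46 at 35.6 and ftz-f1 at 18.5. Most neighbours in this order had ranges over the 4 libraries that overlapped. The exceptions were Eip78C, at 269.8 or more, above usp, at 217 or less, and Hr39, at 101.4 or more, above Hr46, at 52.8 or less. The 3 early genes thus stood at the top and the later factors Hr46 and ftz-f1 at the bottom, with the shared exons of the last pair in mind. EcR exceeded usp per kb in each library, by 2.20-fold and 2.95-fold in the mutant-labelled libraries and by 1.96-fold and 3.41-fold in the WT-labelled ones. The 9 genes also shared long transcription units, with a median locus of 50703 bp beside 2392 bp over the tested genes that matched the annotation, and a median of 5 annotated transcripts beside 2.

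**Figure D5:**
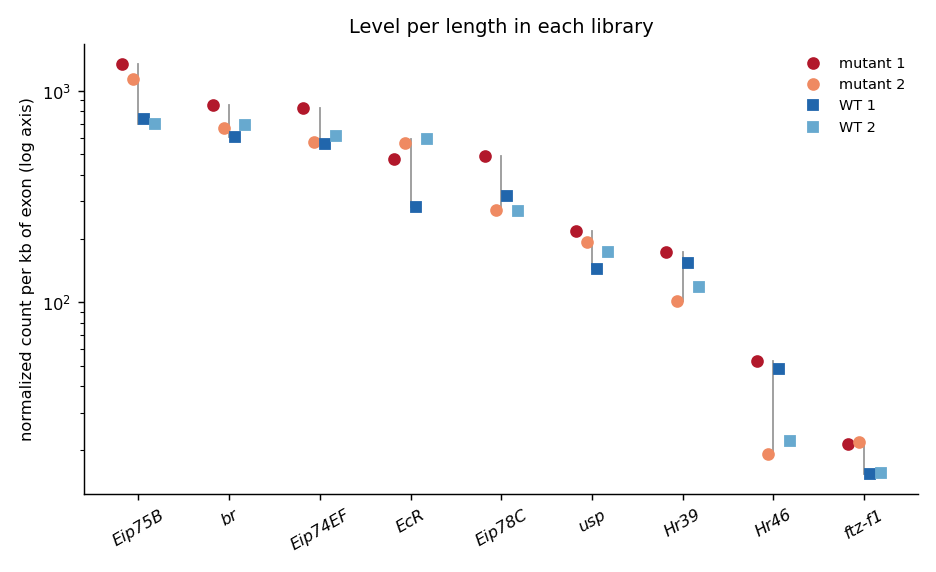
Normalized count per kb of exon (log axis) of the 9 genes, ordered by their mean, with a point for each library (circles, labelled mutant; squares, labelled WT) and a line over the range. Eip75B, br and Eip74EF lie above 550 per kb in every library, and Hr46 and ftz-f1 lie below 55.

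Ratios between 2 genes within a library do not depend on its size factor. The log2 ratio of ftz-f1 to Hr46, a later factor over the receptor known to act before it, was -1.60 and -0.10 in mutant 1 and mutant 2 and -1.94 and -0.78 in WT 1 and WT 2. It was higher in the second library of each group, and the groups overlapped, with a difference of 0.51 between their means. The ratio of Hr46 to Eip75B was -5.02 and -6.26 in the mutant-labelled libraries and -4.29 and -5.34 in the WT-labelled ones, again lower in the second libraries and overlapping between groups. The log2 ratio of ftz-f1 to Eip75B was -6.61 and -6.36 against -6.23 and -6.12, with a difference of -0.31. It alone among the ratios taken separated the groups. With only 111 to 204 reads on ftz-f1 per library, whether this gap exceeds counting error was not tested. Eip74EF over EcR gave 0.71 and -0.07 in the mutant-labelled libraries and 0.90 and -0.04 in the WT-labelled ones. The first libraries were thus high and the second near 0 in either group for this ratio, and the groups overlapped.

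Among the other nuclear receptors, 14 genes were measured and 7 had enough counts to be tested. Of these, 0 passed in limma after Benjamini-Hochberg adjustment, 0 in DESeq2 or edgeR, and 0 had an unadjusted limma p under 0.05. In both mutant-labelled libraries 3 were higher and 1 was lower, beside 26.2% and 27.9% of all tested genes. The 7 had a median log2 fold change of 0.37. Hnf4, a receptor known for its part in lipid use, had 1473 and 1515 normalized counts in mutant 1 and mutant 2 against 842 and 1272 in WT 1 and WT 2, the order used for the values that follow. ERR, which directs genes of glycolysis in larvae, had 399 and 273 against 240.4 and 242. For svp, which can pair with Usp in place of EcR, the counts were 4534 and 4475 against 2930 and 4146. Log2 fold changes of these 3 were 0.53, 0.45 and 0.37 on the deposited scale. Groups that did not overlap were a condition for naming them, and their order on the housekeeping scale was not examined.

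For the coregulators and partners of EcR and Usp, 13 of 13 genes were tested and 0 passed by limma or edgeR. At an unadjusted limma p under 0.05 there were 2, both higher, beside 6.89% of all tested genes in that direction. DESeq2 called 1 higher, the chaperone gene Hsp83, with an adjusted p of 0.0433 after Benjamini-Hochberg adjustment, beside 2.02% of all genes with an adjusted p. Hsp83 encodes the fly Hsp90, a chaperone known to help the receptor bind DNA, and had 47781 and 46806 normalized counts in the mutant-labelled libraries and in the WT-labelled ones only 28977 and 27762. Its partner chaperone gene Hsc70-4 had 40319 and 40785 against 26427 and 25148. On the deposited scale both chaperone genes had groups that did not overlap, a condition for naming them. Their log2 fold changes were 0.74 and 0.65, beside a median of 0.53 for the 6 housekeeping genes. The order of the chaperone genes on the housekeeping scale was not examined. Smr, a corepressor that binds EcR, had 3858 and 3546 against 2103 and 3047, which gave 0.55 on the log2 scale. Its order on the housekeeping scale was not examined either. In this list 5 genes were higher and 2 lower in both mutant-labelled libraries, beside 26.2% and 27.9% of all tested genes. The median of the list was 0.00.

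The ecdysone-inducible genes and puff genes comprised 20 measured and 17 tested genes. Again 0 passed in limma or edgeR after Benjamini-Hochberg adjustment. At an unadjusted limma p under 0.05, 4 were higher and 2 lower, beside 6.89% and 7.24% of all tested genes. DESeq2 called 2 higher and 2 lower, beside 2.02% and 1.66% of all genes with an adjusted p. ImpL3, which encodes lactate dehydrogenase, had 573 and 79.97 normalized counts against 43.2 and 15.7. Every mutant-labelled library lay above the WT-labelled ones, but the libraries within a group differed by 7.17-fold and 2.76-fold. ImpL3 thus had a log2 fold change of 2.99, with a standard error of 1.04. The transcription factor gene chinmo, known for its expression in early larval stages, had 418 and 449 against 1429 and 726, which gave -1.23 on the log2 scale. Blimp-1, an ecdysone-induced repressor of ftz-f1, was low in each library, at 10.8 and 4.10 against 11.7 and 21.7.

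Kr-h1 and Eip71CD, named after their values were seen, were the other calls of DESeq2 in this list. Kr-h1 encodes a zinc finger factor known for its response to juvenile hormone and had 3452 and 2779 normalized counts against 1623 and 1703. Eip71CD, which encodes a methionine sulfoxide reductase, had 1807 and 1862 against 3608 and 3075. Their groups were well apart, in opposite directions, with log2 fold changes of 0.90 and -0.86. The adjusted p was 0.0313 for each with DESeq2 and 0.343 for each with limma, both after Benjamini-Hochberg adjustment.

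Genes that make, release or take up the hormone gave 0 calls by limma, DESeq2 or edgeR among 8 tested of 12, and 0 at an unadjusted limma p under 0.05. The hydroxylase gene shd, whose product turns ecdysone into its active form in peripheral tissues, had 3000 and 3310 normalized counts against 1439 and 2583. This gave 0.71 on the log2 scale, and the order of shd on the housekeeping scale was not examined. Ptth, which encodes the brain peptide that drives ecdysone release, had 13.4 and 16.4 against 26.1 and 19.3. Among the steroid enzymes of the prothoracic gland, phm was at 53.1 and sad at 59.4 in WT 1 and neither exceeded 7.17 elsewhere. On 13 reads or fewer, spok and nvd were also highest in WT 1, at 11.7 against 4.48 or less and 6.30 against 2.69 or less. But sro, the most abundant, was lowest in WT 1, at 1213 against 1402 to 1625, and so was dib, at 2.70 against 5.38 to 16.4. In the list of ecdysis hormones and receptors 3 of 9 genes were tested, of which 0 passed by limma, DESeq2 or edgeR. Of the 3, 1, ETHR, was higher at an unadjusted limma p under 0.05, beside 6.89% of all tested genes. ETHR, the receptor of the ecdysis triggering hormone, had 46.6 and 47.2 against 10.8 and 21.7, and CCAP had 16.1 and 16.4 against 14.4 and 13.3. Eh had 0 reads in each library.

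Genes of cuticle synthesis and apolysis were low in these libraries, with sums between 269 and 484 over 12 genes. Of 10 tested genes 0 passed by limma, DESeq2 or edgeR. At an unadjusted limma p under 0.05, 1 was higher and 1 lower, beside 6.89% and 7.24% of all tested genes. In both mutant-labelled libraries 4 were lower and 1 was higher, beside 27.9% and 26.2% of all tested genes. The median log2 fold change of the list was -0.36. The chitin synthase gene kkv had 13.4 and 14.4 normalized counts against 61.2 and 48.2, or -1.89 on the log2 scale with a standard error of 0.44. Ddc, needed for cuticle hardening, had 16.1 and 21.5 against 41.4 and 35.0. The chitinase gene Cht7 had 19.7 and 21.5 against 3.60 and 8.44, the opposite order. Of the third-instar and glue genes, 9 of 15 were tested, and in 0 of them did the groups separate, pass a test by limma, DESeq2 or edgeR or reach an unadjusted limma p of 0.05. The L71 late puff genes were looked up as Eip71EA to Eip71EK. These spellings matched no gene name, which does not show that the genes are absent, and they were not analysed here.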

How the data were processed

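Total RNA was depleted of ribosomal RNA, and stranded libraries were read as 50 nt pairs. The submitters' processing notes name TopHat2 2.1.1, HTSeq 0.6.1, DESeq2 and dm6; the strand setting and counting mode are not given in the sources used here. The deposited values are a signal: read counts per gene that the authors divided by size factors. All values (100%) were whole multiples of a step within 0.01, so reads were recovered. Library columns were taken by name. Of 15340 gene names, 11817 matched the Ensembl annotation of dm6 exactly, 3239 by synonym and 284 not at all; 5 had become dates.

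Groups were compared with limma 3.58.1 in R 4.3.3 (eBayes with trend) on log2(normalized count + 1), for genes whose mean reached 10, at a Benjamini-Hochberg adjusted p of 0.05. These p-values rest on 2 extractions per genotype, with the variance of each gene drawn by eBayes towards a trend over all tested genes. They therefore do not measure the spread of 1 gene alone. The added 1 shrinks fold changes of low genes. Members and gene lists were chosen with earlier results of these data known, and the lists of muscle, larval cuticle, housekeeping and hemocyte genes were added after the values were seen. Named genes were the 9 members, Xbp1, up to 3 genes per list with the largest absolute log2 fold change among those whose groups did not overlap, and the 5 genes nearest to the member with the widest range. Other genes named for their order of libraries, for marker levels or for DESeq2 calls, and the per kb ratios, were chosen after their values were seen. Alternatives were 2 other pseudocounts, 2 other filters, 3 other scalings, eBayes without trend, a block for the replicate number, DESeq2 1.42.0 and edgeR 4.0.16 on recovered reads, and leaving out each library; crossed blocks and the housekeeping scaling were added after the data were seen. Scripts were tested on simulated data.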

Additional observations from a re-analysis of the deposited data

How the results depend on the processing

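Of the 9 genes, 0 were called under any alternative other than DESeq2 without a block, which called Eip75B at a log2 fold change of 0.79. Genes called over the whole table, lower and higher, numbered 0 and 1; they were 0 and 3 with no filter, 4 and 10 after rescaling to the same total, 0 and 2 after that rescaling without CR41602, 4 and 12 after quantile normalization, 0 and 0 with eBayes without trend or with the housekeeping scaling, and 147 and 179 with DESeq2. The median of all genes was -0.10, -0.18 and 0.07 under the first 3 scalings. Leaving out 1 library gave 0 to 131 lower and 0 to 39 higher, with 131 and 39 without mutant 2. On the housekeeping scale the log2 fold change was -0.12 for EcR, -0.10 for usp, -0.23 for Eip74EF, -0.15 for Eip78C, -0.25 for br, -0.0045 for ftz-f1, -0.51 for Hr46 and -0.50 for Hr39; quantile normalization gave -0.093 for br and 0.026 for Hr46, DESeq2 0.030 for Hr46 and 0.017 for Hr39, and edgeR 0.0020 for Hr46. With 1 library left out, log2 fold changes ranged from -0.18 to 0.89 for EcR, -0.025 to 0.51 for Eip74EF, -0.10 to 0.75 for Eip78C, 0.049 to 0.41 for br, -0.77 to 0.69 for Hr46 and -0.41 to 0.36 for Hr39; the signs turned without mutant 1 (Eip74EF, Eip78C), without WT 1 (EcR, Hr46, Hr39) or without mutant 2 (Hr46, Hr39). DESeq2 called 1 coregulator higher and, of the inducible genes, 2 lower and 2 higher; leaving out 1 library gave 0 to 1 inducible genes higher. What causes these shifts was not tested.

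A block for the replicate number left 0 and 0 calls in limma (861 genes had p under 0.05 before adjustment) and, in DESeq2, 76 and 92, including 1 inducible gene higher; Eip75B then had an adjusted p of 0.101 by DESeq2 with Benjamini-Hochberg adjustment. The numbers are not said to pair the libraries, and deviations of same-numbered libraries correlated at -0.443 across genes, which are not independent replicates. A crossed pairing called 1410 and 390 by limma and 1206 and 323 by DESeq2, 0 of the 9 genes with either, with 2 inducible genes lower and 1 higher and 1 cuticle gene lower. Depth limits ftz-f1 most, at 111 to 204 reads; for the other genes the spread between libraries exceeded counting error, except usp.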
